A study of Mus musculus with 6 samples.

Results

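A set of 9 genes, of the 32285 in the count matrices, was described in Treg cells of mice labelled as Ctcf knockout in that lineage, and in 4 other leukocyte classes of the same tumours. The genes are Tomm20, Cdc37, Rab11a, Grasp, Ahi1, Sfn, Perp, Mdp1 and Rex1bd. They were selected on the same contrast in the same samples, so their differences between the groups are given as a description, with no test. CD45+ leukocytes had been sorted by FACS on day 25 from subcutaneous tumours of MC38, a mouse colon adenocarcinoma line, and profiled by droplet 5′ single-cell RNA sequencing with T cell receptor enrichment. One group of mice carried a tamoxifen-inducible Ctcf knockout, labelled as a knockout in Tregs (cko, n = 3), and the control mice were labelled as Ctcf WT in Tregs (ctr, n = 3). All mice bore unmodified MC38 cells. The labels call the 3 samples of a group biological replicates. They give neither the driver of the inducible Cre, nor the deleted exons, nor the animals' age, nor whether ctr mice received tamoxifen.

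CTCF is a zinc finger protein that binds DNA and, together with cohesin, sets the borders of chromatin loops and domains, which limits the enhancers that a promoter can reach. Treg cells, a CD4 lineage defined by the transcription factor Foxp3, hold immune responses in check, also those against tumours. The 9 genes belong to several different pathways. Tomm20 encodes a receptor of the translocase that imports proteins through the outer mitochondrial membrane, and Cdc37 the Hsp90 co-chaperone that loads protein kinases onto the chaperone. Rab11a is the small GTPase of recycling endosomes, which return internalised receptors to the cell surface, and Grasp is a scaffold that binds the cytohesins, exchange factors of Arf GTPases. Ahi1 (jouberin) is a protein of the ciliary transition zone. Sfn (14-3-3σ) and Perp, a tetraspan membrane protein that mouse skin needs for its desmosomes, are p53 targets best known from epithelium. Mdp1 is a phosphatase of the haloacid dehalogenase (HAD) superfamily. No role is given here for Rex1bd.

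Promoter sequences of 3 of the genes are shown because all 3 genes were higher in cko Treg cells and yet differ widely in the CpG content of their promoters. Each run holds the 250 bases upstream of the RefSeq transcript start (GRCm38.p6), written 5′ to 3′ on the gene's strand, with every CG dinucleotide in capitals. The windows are chr10:20952297-20952546 on the plus strand for Ahi1, chr8:126945922-126946171 on the minus strand for Tomm20 and chr4:133602169-133602418 on the minus strand for Sfn. None of these 3 windows overlaps the annotated body of its gene in GENCODE.
Ahi1: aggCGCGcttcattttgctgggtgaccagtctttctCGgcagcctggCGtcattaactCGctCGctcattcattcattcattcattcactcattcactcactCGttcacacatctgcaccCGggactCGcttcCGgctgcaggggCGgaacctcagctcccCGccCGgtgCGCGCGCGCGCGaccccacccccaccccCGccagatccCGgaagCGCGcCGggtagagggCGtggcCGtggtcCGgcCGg
Tomm20: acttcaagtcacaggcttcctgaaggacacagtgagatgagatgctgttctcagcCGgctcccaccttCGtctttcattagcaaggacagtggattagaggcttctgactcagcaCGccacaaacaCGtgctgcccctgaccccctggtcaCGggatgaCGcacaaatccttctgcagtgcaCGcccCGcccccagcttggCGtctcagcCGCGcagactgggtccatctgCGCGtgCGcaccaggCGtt
Sfn: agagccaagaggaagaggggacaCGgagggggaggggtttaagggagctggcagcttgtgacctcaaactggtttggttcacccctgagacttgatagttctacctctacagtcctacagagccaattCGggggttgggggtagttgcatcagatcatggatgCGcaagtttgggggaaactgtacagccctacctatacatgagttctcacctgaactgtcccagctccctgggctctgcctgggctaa

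The Ahi1 window held 28 CG dinucleotides, more than 92.4% of the 32851 mouse promoters in the table held. The Tomm20 window held 15 and the Sfn window 3, and the median promoter held 6. Promoters were found for 8 of the 9 genes, and for Ahi1 there were 2, so 9 windows were read. Besides the 3 shown, the second Ahi1 window held 3 CG dinucleotides, and those of Cdc37, Rex1bd, Mdp1, Grasp and Rab11a held 27, 18, 14, 13 and 10. The genes lower in cko Treg cells, Rex1bd and Mdp1, lay within the range of those that were higher. The CTCF core motif CCNNNAGNNGGC, searched on both strands, was in 0 of the 9 windows and in 8.61% of all promoters of that length. That says only that these letters are absent from these windows.

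The 6 libraries held 6125 to 7577 barcodes and 45322797 to 55515267 UMIs. Cells were assigned to classes by marker genes alone. The Treg gate took Cd3-positive, Cd8-negative cells with a Foxp3 UMI, or with all 5 of Il2ra, Ikzf2, Ctla4, Tnfrsf4 and Tnfrsf18. It held 182, 252 and 224 cells in cko replicates 1 to 3 (1231950 to 2337497 UMIs) and 399, 397 and 456 cells in ctr replicates 1 to 3 (2804917 to 3250265 UMIs). Foxp3 was read among cells chosen by the panel of 5 genes alone. It stood at 63.5 to 77.3 CPM (counts scaled to all UMIs of the sum) in cko and 56.4 to 74.4 CPM in ctr. In the CD8 gate it was at most 1.00 CPM in any sample. In the conventional CD4 gate with Foxp3 ignored it was 0.54 to 4.13 CPM in cko and 8.61 to 19.9 CPM in ctr. The panel cells as a sum thus held Foxp3 in both groups. Of the gated cells, 349 of 658 in cko and 687 of 1252 in ctr had no Foxp3 UMI. A T cell receptor β chain was assembled in 79.4% to 83.5% of gated Treg cells in cko and 84.7% to 88.9% in ctr. Ctcf, the targeted gene, stood at 58.4, 80.9 and 65.7 CPM in the Treg cells of cko replicates 1 to 3 and at 80.9, 82.8 and 99.5 CPM in those of ctr replicates 1 to 3. The groups touched without overlapping, and the difference did not pass the test (log2 -0.38, SE 0.16, edgeR quasi-likelihood adjusted p = 0.339). Reads from the transcript's 5′ end can lie outside the deleted part, so this level is no full check of the deletion.

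The T cells of cko replicates 1 and 3 shared clones. They had 197 clonotypes in common, which held 2312 of 2818 and 1996 of 2860 cells with a receptor, whereas every other pair of libraries shared 3 or fewer. These libraries had 60 cell barcodes in common, within the range of 35 to 76 for all pairs, and 1 of the 60 carried the same clonotype in both. Whether they came from separate animals is not settled by the labels, and the change of each of the 9 genes over the whole Treg gate is therefore also given with these 2 libraries added together. If they share an animal, the spread between cko samples is in part technical.

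All 9 genes separated the groups in Treg cells. In 7 of them, Tomm20, Cdc37, Rab11a, Grasp, Ahi1, Sfn and Perp, every cko sample lay above every ctr sample, and in Mdp1 and Rex1bd every cko sample lay below. Over all 9670 genes tested in Treg sums, the shares that separated in those directions were 11.1% and 8.71%, and 1.16% (112 genes) passed the test across all genes. That number was 33 with cko replicates 1 and 3 added together, 0 without cko replicate 1, 261 without cko replicate 2, 21 without cko replicate 3, and 40, 37 and 22 without ctr replicates 1, 2 and 3. Since the genes were selected on this contrast, nothing is read from their count against these shares. Their median absolute log2 difference was 1.05, against 0.21 over all genes tested. The same selection favours large differences, so nothing is read from that comparison either. In each of the other classes fewer of the 9 genes separated, and the differences were mostly smaller, as the values below show gene by gene. Those classes differed in size and depth. Conventional CD4 sums held 325 to 365 cells in cko and 88 to 328 in ctr, and CD8 sums 1509 to 2412 and 838 to 1664. NK sums held 127 to 189 cells in cko and 186 to 337 in ctr, and myeloid sums 703 to 1454 and 1235 to 2285. Sample medians in NK cells were 2750 to 4836 UMIs in cko and 7290.5 to 9194 in ctr.

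**Figure D1:**
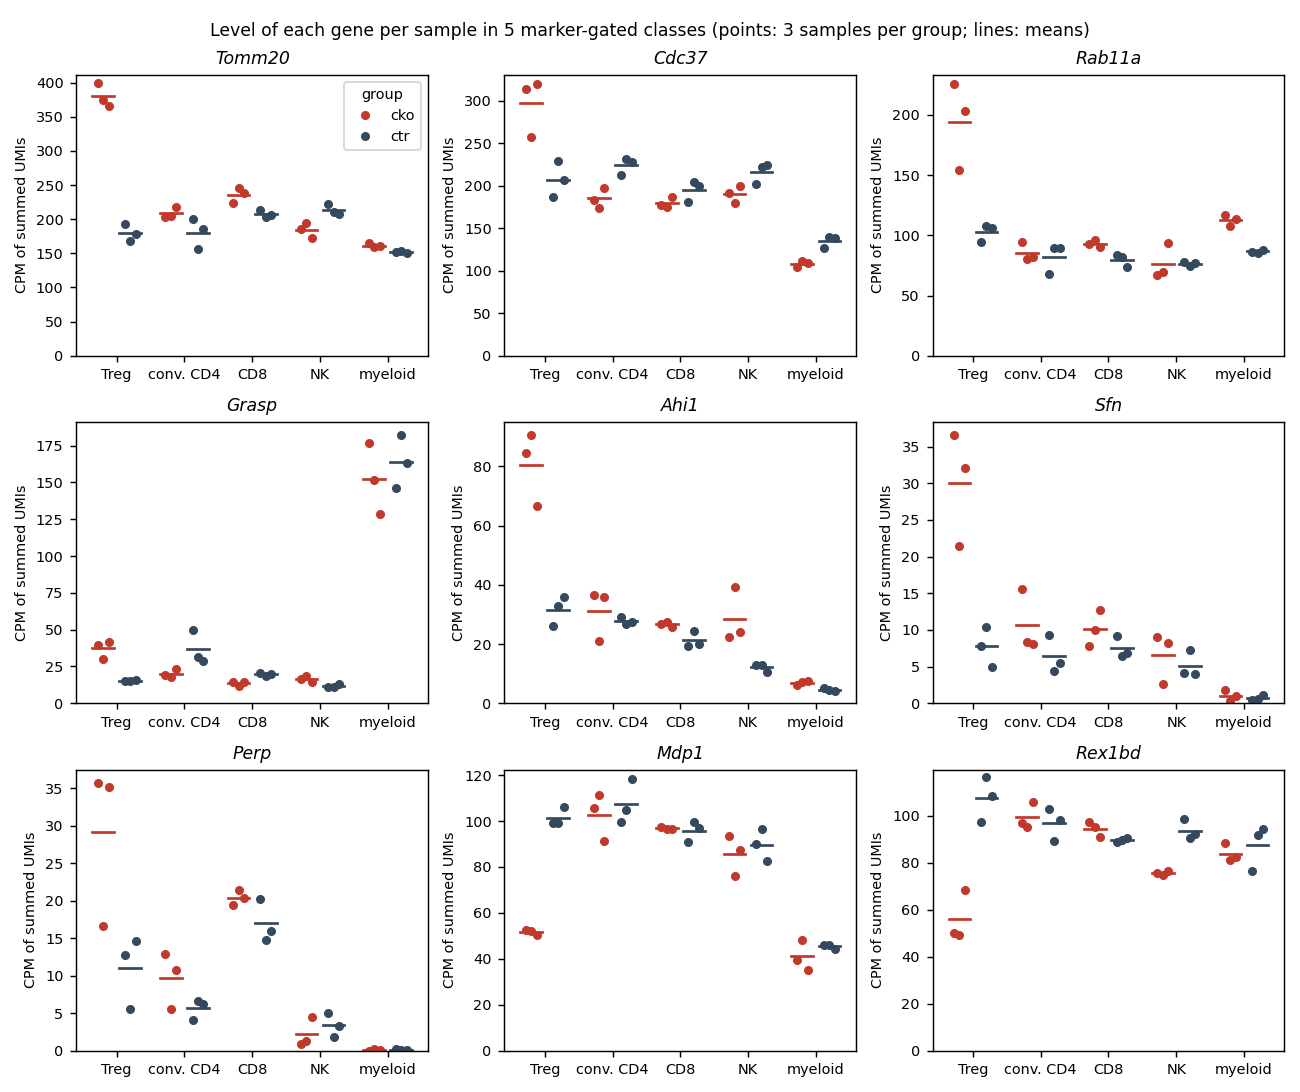
Level of each gene in CPM of summed UMIs (y axis, from 0) in Treg, conventional CD4, CD8, NK and myeloid cells (x axis), for the 3 cko samples (red, left) and the 3 ctr samples (grey-blue, right) of each class, with lines at the means. Tomm20 in Treg cells averaged 380 CPM in cko and 180 CPM in ctr, and Mdp1 averaged 51.7 CPM in cko and 101 CPM in ctr. In the other 4 classes the groups' means lie closer together for most genes.

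Tomm20, the mitochondrial import receptor, stood at 399, 374 and 366 CPM in Treg cells of cko replicates 1 to 3, against 193, 168 and 178 CPM in those of ctr replicates 1 to 3. All 3 cko samples lay near each other and well above ctr. This is a 2.07-fold difference (log2 1.05, SE 0.13), and the log2 value was 1.03 with cko replicates 1 and 3 added together. Outside Treg cells the changes were 0.19 in conventional CD4 cells, 0.15 in CD8 cells, -0.34 in NK cells and 0.15 in myeloid cells on the log2 scale. These were small, but the groups did not overlap in any of the 4 classes, with the cko samples above ctr in conventional CD4, CD8 and myeloid cells and below ctr in NK cells. Each cell was also thinned to 2000 UMIs. A Tomm20 UMI was then held by 50.4% ± 1.56 of cko and 30.8% ± 1.85 of ctr Treg cells (SD, n = 3 each). At a fixed depth this share rises with the mean level, so it is not a separate result. Without thinning the shares were 81.2% ± 3.33 in cko and 64.5% ± 2.89 in ctr. Thinning left out 19 cko and 21 ctr Treg cells with fewer UMIs. No class here lacks Tomm20, so no background share from free RNA could be taken for it.

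Cdc37, the kinase-loading partner of Hsp90, had the smallest difference of the set in Treg cells. It stood at 314, 257 and 320 CPM in cko replicates 1 to 3 and at 186, 229 and 206 CPM in ctr replicates 1 to 3. The gap between cko replicate 2 and ctr replicate 2 was narrow. The difference was 1.41-fold (log2 0.49, SE 0.14), and the log2 value was 0.44 with cko replicates 1 and 3 added together. In the other classes Cdc37 pointed the other way: the log2 fold change was -0.28 in conventional CD4 cells, -0.16 in CD8 cells, -0.31 in NK cells and -0.26 in myeloid cells. The cko samples all lay below the ctr samples in conventional CD4, NK and myeloid cells, and overlapped them in CD8 cells.

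Rab11a, the recycling endosome GTPase, stood at 226, 154 and 203 CPM in Treg cells of cko replicates 1 to 3 and at 94.5, 108 and 106 CPM in those of ctr replicates 1 to 3. The lowest cko sample, replicate 2, still lay above all ctr samples. Rab11a was thus 1.85-fold higher (log2 0.89, SE 0.16), and the log2 value was 0.80 with cko replicates 1 and 3 added together. Rab11a was also higher in cko myeloid cells, at 113 ± 4.84 CPM in cko and 86.6 ± 1.06 CPM in ctr (SD, n = 3 each; log2 0.44, SE 0.09), where the groups did not overlap. In CD8 cells the groups did not overlap either, at 93.0, 95.7 and 90.0 CPM in cko replicates 1 to 3 and 83.8, 81.8 and 73.8 CPM in ctr replicates 1 to 3 (log2 0.18). They overlapped in conventional CD4 cells (log2 0.06) and in NK cells (log2 -0.12).

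Grasp, the cytohesin-binding scaffold, rested on few counts in Treg cells, with 49, 71 and 78 UMIs in cko replicates 1 to 3 and 42, 49 and 50 UMIs in ctr replicates 1 to 3. Scaled to the sum, these were 39.8, 30.4 and 41.7 CPM in cko against 15.0, 15.1 and 15.6 CPM in ctr. The ctr samples were nearly equal, and the lowest cko sample lay well above them. The log2 fold change was 1.25 (SE 0.18), and 1.20 with cko replicates 1 and 3 added together. In conventional CD4 cells the order was opposite (log2 -0.90, SE 0.26). Grasp stood there at 18.9, 17.7 and 22.9 CPM in cko replicates 1 to 3. In ctr replicates 1 to 3 it stood at 49.9, 31.2 and 28.9 CPM. Those values rest on 35, 38 and 51 UMIs in cko and 48, 14 and 42 UMIs in ctr. The sum of ctr replicate 2 held only 88 conventional CD4 cells. CD8 cells showed the same order as conventional CD4 cells, with a mean of 13.6 ± 1.51 CPM in cko and 19.6 ± 1.04 CPM in ctr (log2 -0.56, SE 0.11). Grasp overlapped between the groups in myeloid cells, and in NK cells every cko sample lay above ctr (log2 0.30, SE 0.26). If Foxp3 is left out of the conventional CD4 gate, its Foxp3 level is 0.54 to 4.13 CPM in cko and 8.61 to 19.9 CPM in ctr. The gate used here takes those cells out. It also excludes cells with an Ikzf2 or Il2ra UMI, so of the 6 Treg markers only Ctla4, Tnfrsf4 and Tnfrsf18 could count. These summed to 1158 to 2135 CPM in cko and 1410 to 2381 CPM in ctr, with the groups overlapping. With the other markers fixed by the gate, this sum is no check for remaining Treg cells. Whether Treg cells without a Foxp3 UMI remained in the gate, and their part in the difference of Grasp, was not tested.

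Ahi1, the jouberin gene, stood at 84.4, 90.7 and 66.7 CPM in Treg cells of cko replicates 1 to 3, against 26.0, 32.9 and 35.9 CPM in ctr replicates 1 to 3. Every cko sample was far above every ctr sample. The fold was 2.50 (log2 1.32, SE 0.18), and the log2 value was 1.33 with cko replicates 1 and 3 added together. Of the 9 genes, Ahi1 had the largest log2 difference outside Treg cells. In NK cells it stood at 22.5, 39.3 and 24.1 CPM in cko and at 13.0, 12.8 and 10.6 CPM in ctr (log2 1.06, SE 0.25), and in myeloid cells it averaged 6.98 ± 0.790 CPM in cko and 4.60 ± 0.501 CPM in ctr (log2 0.67, SE 0.17). It was higher in CD8 cells too, at 26.7 ± 0.771 CPM in cko and 21.2 ± 2.71 CPM in ctr (log2 0.30, SE 0.11). In all of these classes the groups did not overlap, while in conventional CD4 cells they did (log2 0.15, SE 0.25). The highest NK value, that of cko replicate 2, rests on 30 UMIs. That NK sum had the lowest median depth of the 6, at 2750 UMIs per cell, and ctr NK cells were deeper than cko NK cells.

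Sfn, which encodes 14-3-3σ, had the largest log2 fold change of the set. It had 45, 50 and 60 UMIs in Treg cells of cko replicates 1 to 3 and 22, 34 and 16 UMIs in those of ctr replicates 1 to 3, although the ctr sums were deeper. Its levels were 36.5, 21.4 and 32.0 CPM in cko replicates 1 to 3 and 7.84, 10.5 and 4.99 CPM in ctr replicates 1 to 3. The log2 fold change was 1.89 (SE 0.30), or 3.70-fold, and 1.80 with cko replicates 1 and 3 added together. At 2000 UMIs per cell, 6.40% ± 0.339 of cko Treg cells and 2.07% ± 1.11 of ctr Treg cells held a UMI. Without thinning these shares were 14.5% ± 0.961 in cko and 4.54% ± 1.49 in ctr. Myeloid cells thinned to the same depth gave 0.102% ± 0.120 in cko and 0.262% ± 0.170 in ctr, a floor far under the Treg shares. Before thinning, sample medians were 4846.5 to 6295.5 UMIs in cko Treg cells and 5431 to 6555 in ctr Treg cells, and 6786 to 7832 in cko myeloid cells and 7681 to 8947 in ctr myeloid cells. The groups overlapped in each of the other 4 classes, where the log2 differences were 0.65 in conventional CD4, 0.38 in CD8, 0.43 in NK and 0.69 in myeloid cells.

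Perp, the desmosomal tetraspan protein, stood at 35.7, 16.7 and 35.2 CPM in Treg cells of cko replicates 1 to 3 and at 12.8, 5.54 and 14.7 CPM in ctr replicates 1 to 3. The lowest cko sample, replicate 2, lay just above the highest ctr sample, replicate 3. The mean difference of 1.35 on the log2 scale had the widest error of the set (SE 0.40), and was 1.23 with cko replicates 1 and 3 added together. In conventional CD4 cells Perp stood at 12.9, 5.59 and 10.8 CPM in cko replicates 1 to 3 and 4.16, 6.68 and 6.19 CPM in ctr replicates 1 to 3, so the groups overlapped (log2 0.78, SE 0.45). CD8 cells had 20.4 ± 1.00 CPM in cko and 17.0 ± 2.86 CPM in ctr. NK and myeloid cells held too few counts for the test, with 2.24 ± 1.98 CPM in cko and 3.39 ± 1.60 CPM in ctr NK cells, and with at most 0.175 CPM in cko and 0.195 CPM in ctr myeloid cells.

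Sfn and Perp are epithelial genes, so markers of tumour or epithelial cells were read in the same Treg sums. The 12 marker genes summed to 19.5 to 29.4 CPM in cko and 9.54 to 18.7 CPM in ctr, so every cko sample lay above every ctr sample. The largest share of it was Epcam, at 13.8, 16.3 and 18.7 CPM in cko replicates 1 to 3 and 8.91, 3.08 and 13.1 CPM in ctr replicates 1 to 3. Krt18 had 1 to 8 UMIs per sum in cko and 1 to 9 in ctr, Muc1 3 to 7 in cko and 2 to 5 in ctr, Lgals4 3 to 4 in cko and 3 to 6 in ctr, and Cdh1 0 to 2 in cko and 2 to 3 in ctr. Cldn7 had 1 UMI in 1 cko sum. The remaining 6 genes of the list, Krt8, Krt19, Krt7, Cldn3, Cldn4 and Elf3, were at 0 UMIs in all 6 sums. Epcam itself did not pass the test (log2 0.94, SE 0.42, edgeR adjusted p = 0.383). Myeloid markers were lower in cko Treg sums, at 28.7 to 42.2 CPM in cko and 53.3 to 100.2 CPM in ctr, and NK markers at 4.28 to 11.4 CPM in cko and 18.5 to 39.9 CPM in ctr. Plasma cell markers were at 0 to 1.07 CPM in cko replicates 1 and 3, at 107 CPM in cko replicate 2 and at 0 to 7.13 CPM in ctr. Endothelial markers were higher, at 35.1 to 43.8 CPM in cko and 13.2 to 27.1 CPM in ctr, and almost all of that was Pecam1, with Cdh5 at 0 UMIs in all 6 sums and Kdr at 0 or 1. The part of these cells in the results was not tested.

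Mdp1, the HAD-family phosphatase, was lower in cko Treg cells, at 52.8, 52.2 and 50.2 CPM in cko replicates 1 to 3 against 99.1, 99.1 and 106 CPM in ctr replicates 1 to 3. The 3 samples of each group were close together. This was a 0.50-fold level (log2 -1.0, SE 0.13), and the log2 value was -1.01 with cko replicates 1 and 3 added together. In conventional CD4 cells the means were 103 ± 10.4 CPM in cko and 108 ± 9.55 CPM in ctr, and in CD8 cells 96.9 ± 0.620 CPM in cko and 95.7 ± 4.58 CPM in ctr. Mdp1 overlapped between the groups in all 4 other classes, with log2 fold changes between -0.18 and -0.02. At equal depth, 8.73% ± 1.85 of cko Treg cells and 19.3% ± 2.16 of ctr Treg cells held a Mdp1 UMI. Without thinning the shares were 27.2% ± 2.52 in cko and 49.9% ± 2.72 in ctr.

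Rex1bd was the other gene that was lower, at 50.3, 49.2 and 68.4 CPM in Treg cells of cko replicates 1 to 3 and 97.3, 116 and 109 CPM in ctr replicates 1 to 3. The groups were well apart. On the log2 scale the difference was -0.97 (SE 0.16), or 0.51-fold, and -0.99 with cko replicates 1 and 3 added together. In NK cells Rex1bd was also lower in every cko sample, at 75.7 ± 1.04 CPM in cko and 93.7 ± 4.21 CPM in ctr (log2 -0.44, SE 0.13). It averaged 94.4 ± 3.22 CPM in cko and 89.6 ± 0.886 CPM in ctr CD8 cells, where the groups separated by a small step in the other direction (log2 0.04, SE 0.08). In conventional CD4 and myeloid cells the groups overlapped, at log2 differences of 0.02 in conventional CD4 cells and close to 0 in myeloid cells.

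Set side by side, the classes other than Treg cells gave fewer separations. In conventional CD4 cells 1 of the 9 genes lay wholly above ctr and 2 wholly below, where 6.47% and 6.54% of all genes tested in that class did so. In CD8 cells 4 lay above and 1 below, against 15.8% and 9.68% of all genes, and in NK cells 2 lay above and 3 below, against 21.3% and 6.55%. In myeloid cells 3 lay above and 1 below, against 14.5% and 23.2% of all genes. The absolute log2 difference was above 0.5 for 8 of the genes in Treg cells and 3 in conventional CD4 cells. It was so for 1 in CD8 cells, 1 in NK cells and 2 in myeloid cells. No share of all genes tested stands beside these counts, so nothing is read from them. The median absolute log2 difference of the 9 genes was 0.19 in conventional CD4, 0.18 in CD8, 0.33 in NK and 0.20 in myeloid cells. Only 8 were tested in NK and in myeloid cells. Over all genes tested these medians were 0.19, 0.16, 0.23 and 0.24. The difference between classes was not tested, because the Treg contrast had selected the genes.

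**Figure D2:**
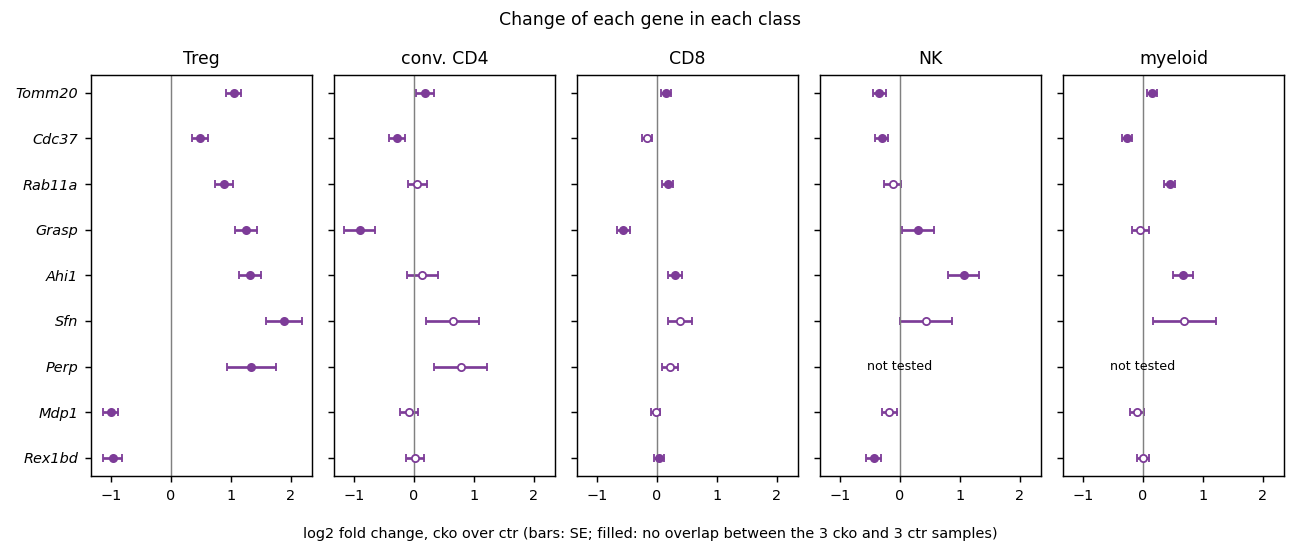
Log2 fold change of cko over ctr (x axis, bars are SE) for each gene (rows) in 5 classes (panels). Filled points mark genes in which the 3 cko and 3 ctr samples did not overlap. In Treg cells all 9 points are filled and lie between -1.0 and 1.89, and Grasp lies at -0.90 in conventional CD4 cells. Perp was not tested in NK and myeloid cells.

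The Treg gate could be entered in either of 2 ways. In cells with a Foxp3 UMI (309 in cko, 565 in ctr) and in cells that entered by the 5-gene panel without one (349 in cko, 687 in ctr), each of the 9 genes had its cko mean on the same side of its ctr mean as in the whole gate. For every gene except Grasp (2.43 with and 2.52 without), the ratio of the cko to the ctr mean was more extreme in cells with a Foxp3 UMI. Perp had ratios of 3.36 with and 2.26 without one, and Ahi1 2.91 and 2.31. The step was small for Tomm20 (2.14 and 2.08) and Cdc37 (1.45 and 1.40). The 2 genes that were lower are given in CPM for the cells with a Foxp3 UMI and for the others. Mdp1 averaged 42.1 CPM in cko and 105 CPM in ctr among these cells (log2 -1.36, SE 0.19), and 59.5 CPM in cko and 98.6 CPM in ctr among the others. Rex1bd averaged 45.2 CPM in cko and 106 CPM in ctr among cells with a Foxp3 UMI (log2 -1.33, SE 0.19), and 65.7 CPM in cko and 108 CPM in ctr among the others.

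Ccr8, a chemokine receptor that marks activated Treg cells of tumours, was detected in 365 of 658 cko Treg cells and in 1029 of 1252 ctr Treg cells. For most of the genes the ratio between the groups was larger in the cells without a Ccr8 UMI. Ahi1 averaged 121 ± 16.9 CPM in cko and 31.8 ± 2.01 CPM in ctr in those cells, and 61.2 ± 10.1 CPM in cko and 31.7 ± 5.82 CPM in ctr in cells with a Ccr8 UMI. Tomm20 averaged 452 ± 28.5 CPM in cko and 149 ± 12.5 CPM in ctr in cells without a Ccr8 UMI, and 347 ± 13.9 CPM in cko and 184 ± 12.4 CPM in ctr in cells with one. Mdp1 was lowest in the cko cells without a Ccr8 UMI, at 34.7 ± 10.5 CPM in cko and 110 ± 12.2 CPM in ctr, against 59.2 ± 3.64 CPM in cko and 100.4 ± 6.38 CPM in ctr in cells with one. Cells without a Ccr8 UMI were shallower, at a mean of 6004 UMIs per cell in cko and 5358 in ctr, where cells with one had 9834 in cko and 7857 in ctr. Sfn was an exception, with 37.9 ± 8.27 CPM in cko and 14.3 ± 9.0 CPM in ctr in cells without a Ccr8 UMI and 26.1 ± 8.51 CPM in cko and 6.81 ± 2.12 CPM in ctr in cells with one. Grasp differed by nearly the same ratio in both. This split was chosen after values had been seen and has no test.

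**Figure D3:**
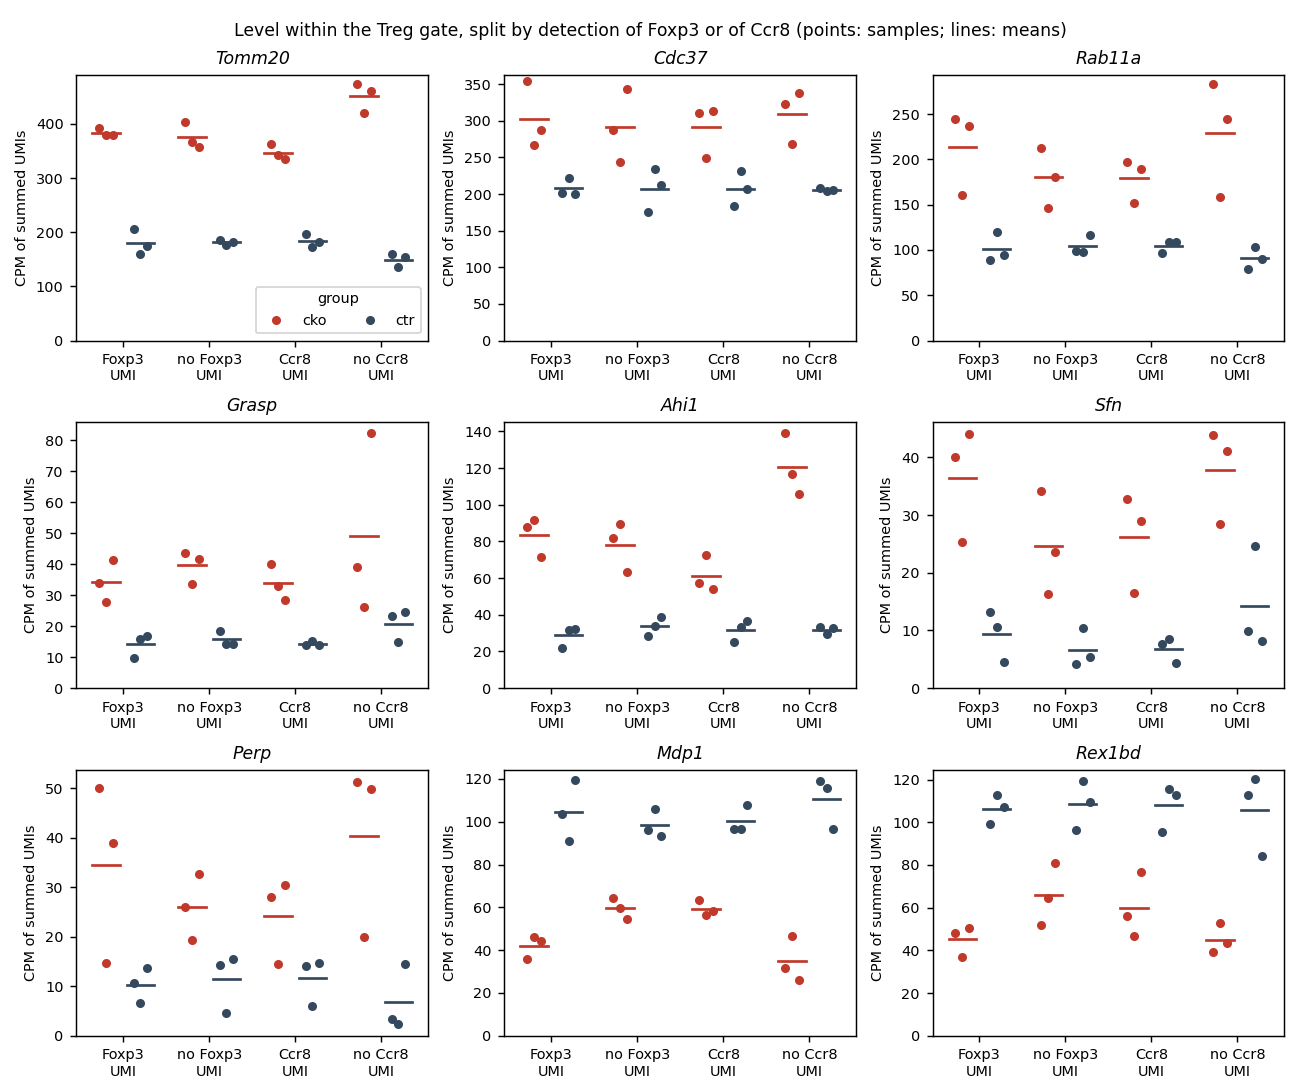
Level in CPM (y axis) within the Treg gate, in cells with and without a Foxp3 UMI and with and without a Ccr8 UMI (x axis), for the 3 cko samples (red, left) and 3 ctr samples (grey-blue, right), with lines at the means. Ahi1 in cko cells without a Ccr8 UMI averaged 121 CPM, against 31.8 CPM in ctr.

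The same genes were then followed over all Cd8-negative T cells, binned by how many of the 5 panel genes (Il2ra, Ikzf2, Ctla4, Tnfrsf4 and Tnfrsf18) each cell held. Tomm20 in cko averaged 113, 162, 207, 251, 302 and 381 CPM in cells with 0, 1, 2, 3, 4 and 5 panel genes, while in ctr it stayed between 127 and 202 CPM over the same bins. Ahi1 in cko averaged 14.4, 25.8, 35.7, 45.8, 60.0 and 79.1 CPM over the bins, and 14.7 to 37.8 CPM in ctr. Both cko means were therefore higher in each bin than in the one before it.

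For Mdp1 the bins with 0 to 3 panel genes were level in both groups, at 93.4 to 106 CPM in cko and 94.7 to 111 CPM in ctr. The cko mean was then 76.3 CPM with 4 panel genes and 53.01 CPM with 5, where ctr had 95.1 and 101 CPM. Rex1bd was at 87.9 ± 12.6 CPM in cko and 104 ± 4.56 CPM in ctr with 4 panel genes, and at 58.1 ± 9.98 CPM in cko and 108 ± 13.2 CPM in ctr with 5. Rab11a reached 130 ± 9.99 CPM with 4 panel genes and 193 ± 35.1 CPM with 5 in cko, against 97.0 ± 16.8 and 103 ± 7.24 CPM in ctr. Cdc37 had 303 ± 35.1 CPM in cko and 210 ± 21.7 CPM in ctr with 5 panel genes. With 4 panel genes it had 220 ± 13.2 CPM in cko and 195 ± 6.21 CPM in ctr. Its cko samples lay above the ctr samples in both of these bins.

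Grasp took another course. In ctr it averaged 80.9 ± 49.9 CPM in cells without panel genes and 14.5 ± 1.41 CPM in cells with all 5, whereas in cko it was 34.1 ± 21.9 CPM with none, 22.0 ± 3.88 CPM with 3 and 35.6 ± 6.29 CPM with all 5. Its mean in cko was thus above ctr at the Treg end of the scale and below it at the other end. With 0 panel genes the groups overlapped, at 59.3, 23.1 and 19.8 CPM in cko replicates 1 to 3 and 122, 94.5 and 25.6 CPM in ctr replicates 1 to 3. Those values rest on 3 to 17 UMIs per sum. Depth rose along the scale in both groups, with a mean of 2687 UMIs per cell in cko and 3075 in ctr at 0 panel genes and 8991 in cko and 7904 in ctr at 5. CPM is scaled for that depth, but a deeper cell also shows more panel genes, so the bins are partly a ranking by depth. Foxp3 also differed between the groups within bins. It averaged 7.26 CPM in cko and 30.4 CPM in ctr with 3 panel genes, and 25.1 CPM in cko and 47.0 CPM in ctr with 4. With 5 panel genes it averaged 69.0 CPM in cko and 67.3 CPM in ctr. The bins with 3 and 4 panel genes may thus hold different shares of Treg cells in the groups, which was not tested.

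**Figure D4:**
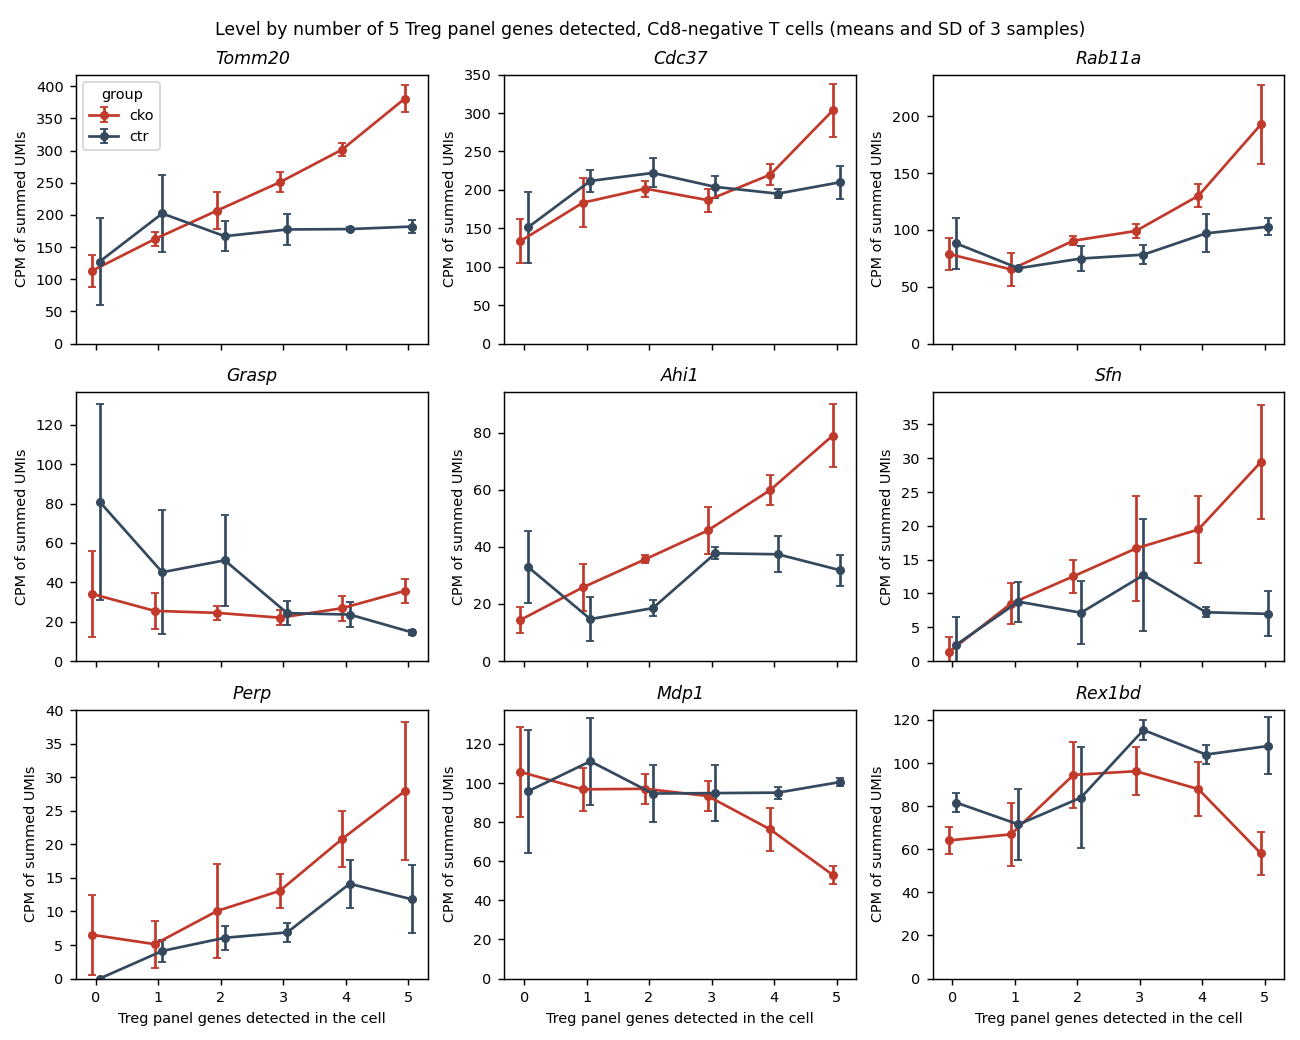
Level in CPM (y axis, from 0) of each gene in Cd8-negative T cells by the number of Treg panel genes detected (x axis, 0 to 5), as means with SD of the 3 cko samples (red) and the 3 ctr samples (grey-blue). Tomm20 in cko reaches 381 CPM at 5 panel genes, where ctr has 182 CPM, and the cko and ctr points of Mdp1 part at 4 panel genes.

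Where the genes are expressed without the knockout was tested in ctr cells of the 4 classes other than Treg. The genes had been selected on differences between cko and ctr, which may have been read in these classes too, and not on levels between classes. CD8 cells were the baseline, with the sample as a block (edgeR quasi-likelihood test, adjusted over 11911 genes). This comparison called 21.4% of all genes in conventional CD4 cells, 32.2% in NK cells and 73.3% in myeloid cells, so a call in myeloid cells alone says little. TMM scaling between classes raised the 9 genes' myeloid values by a median of 0.35 on the log2 scale relative to the ratio of their CPM means, and the conventional CD4 and NK values differed from that ratio by a median of -0.10 and -0.07. Perp had the steepest differences between classes. Its log2 level relative to CD8 cells was -6.69 in myeloid cells (SE 0.30, adjusted p = 5.12e-14), -2.32 in NK cells (SE 0.24, adjusted p = 2.94e-07) and -1.74 in conventional CD4 cells (SE 0.32, adjusted p = 0.000435). Sfn was lower in myeloid cells (log2 -3.01, SE 0.31, adjusted p = 2.53e-08), and its NK and conventional CD4 levels did not pass the test (adjusted p = 0.0814 and 0.666).

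Grasp ran the other way and was highest in myeloid cells, at 164 ± 18.0 CPM against 19.6 ± 1.04 CPM in CD8 cells (log2 3.41, SE 0.12, adjusted p = 1.04e-14). It was also higher in conventional CD4 cells (log2 0.78, SE 0.20, adjusted p = 0.00782) and lower in NK cells (log2 -0.79, SE 0.19, adjusted p = 0.00294). Ahi1 was lower in NK (log2 -0.87, SE 0.17, adjusted p = 0.000360) and myeloid cells (log2 -1.87, SE 0.14, adjusted p = 1.81e-10). Mdp1 was lower in myeloid cells (log2 -0.72, SE 0.08, adjusted p = 1.17e-07). Rab11a (log2 0.47, SE 0.09, adjusted p = 7.19e-05) was higher there, by 0.12 in the CPM means. Rex1bd passed as higher (log2 0.32, SE 0.09, adjusted p = 0.00342), but that direction rests on the TMM scaling, since its CPM means were 87.6 ± 9.66 in myeloid and 89.6 ± 0.886 in CD8 cells (log2 ratio -0.03). Tomm20 was lower in conventional CD4 cells (log2 -0.30, SE 0.09, adjusted p = 0.0262) and Cdc37 was lower in myeloid cells (log2 -0.18, SE 0.07, adjusted p = 0.0351).

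The ctr Treg levels, given without a test, fell within or near the range of the other ctr lymphocytes for most genes. Tomm20 averaged 180 ± 12.7 CPM in ctr Treg cells, 180 ± 22.3 in conventional CD4, 207 ± 5.63 in CD8, 213 ± 7.78 in NK and 152 ± 1.47 in myeloid cells. Its cko Treg level of 380 ± 17.3 CPM was therefore above every class of either group. Rab11a was highest in Treg cells already in ctr, at 103 ± 7.13 CPM, with the ctr means of the other classes between 76.6 and 86.6 CPM. Mdp1 in cko Treg cells, at 51.7 ± 1.35 CPM, came close to its level in myeloid cells, which was 41.1 ± 6.68 CPM in cko and 45.6 ± 1.01 CPM in ctr.

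The genes lie on 6 autosomes (GENCODE vM21, GRCm38). Tomm20 (ENSMUSG00000093904, chromosome 8, 126930667 to 126945844, minus strand) and Rex1bd (ENSMUSG00000058833, chromosome 8, 70504292 to 70506752, minus strand) share a chromosome. So do Rab11a (ENSMUSG00000004771, chromosome 9, 64715299 to 64737758, minus strand) and Cdc37 (ENSMUSG00000019471, chromosome 9, 21133222 to 21149982, minus strand). Ahi1 (ENSMUSG00000019986, chromosome 10, 20952547 to 21080429, plus strand) and Perp (ENSMUSG00000019851, chromosome 10, 18845020 to 18857073, plus strand) lie on chromosome 10. Sfn (ENSMUSG00000047281) is at 133600556 to 133602168 on chromosome 4, minus strand, and Mdp1 (ENSMUSG00000002329) at 55657879 to 55660508 on chromosome 14, minus strand. Grasp (ENSMUSG00000000531) is at 101224188 to 101232756 on chromosome 15, plus strand. All are protein-coding. Mdp1 overlaps the pseudogene Gm49299 on its own strand, Grasp the antisense gene A330009N23Rik, and Ahi1 the antisense gene Gm20149. The sources used here do not say how the authors' counting treated strand, so reads of Mdp1, Grasp and Ahi1 could in part belong to these neighbours.

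The neighbours of the 9 genes had no part in selecting them, so their changes in Treg cells were tested. Within 250 kb of a start, 65 other genes could be tested and 2 passed (3.08%, against 1.16% of all genes tested in Treg cells). Pde4a, a phosphodiesterase that breaks down cyclic AMP, starts 15.7 kb from Cdc37. It stood at 17.9, 12.0 and 19.8 CPM in cko replicates 1 to 3 and at 4.28, 4.0 and 5.93 CPM in ctr replicates 1 to 3 (log2 1.74, SE 0.30, edgeR adjusted p = 0.0264). Isyna1, which makes inositol phosphate from glucose phosphate, starts 87.6 kb from Rex1bd and rose where Rex1bd was lower. It stood at 95.8, 98.4 and 108 CPM in cko replicates 1 to 3 and at 52.8, 59.1 and 49.6 CPM in ctr replicates 1 to 3 (log2 0.88, SE 0.13, adjusted p = 0.0158). Neither call held without cko replicate 1, without cko replicate 3, without any 1 of the ctr replicates, or with cko replicates 1 and 3 added together, where the count was 0.

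Other neighbours gave no call. The oncogene Myb, which encodes a transcription factor of blood progenitors, was the only tested neighbour of Ahi1. It starts 208 kb away and stood at 3.25, 24.8 and 9.08 CPM in cko replicates 1 to 3 and at 8.20, 4.92 and 3.12 CPM in ctr replicates 1 to 3, so the groups overlapped (log2 1.29, SE 0.64, adjusted p = 0.444). Nr4a1, an immediate early gene of receptor signalling 30.1 kb from Grasp, had a log2 fold change of -0.24 (adjusted p = 0.698). Tnfaip3, the NF-κB inhibitor A20, 171 kb from Perp, had 0.01 (adjusted p = 0.997). The median log2 fold change over all 65 neighbours was 0.03, equal to the median of all genes tested at 2 decimals. Myb, Nr4a1 and Tnfaip3, the nearest tested neighbours of Ahi1, Grasp and Perp, were named after their values were seen. Other genes of the set have neighbours that start nearer, such as Tyk2, 18.7 kb from Cdc37.

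**Figure D5:**
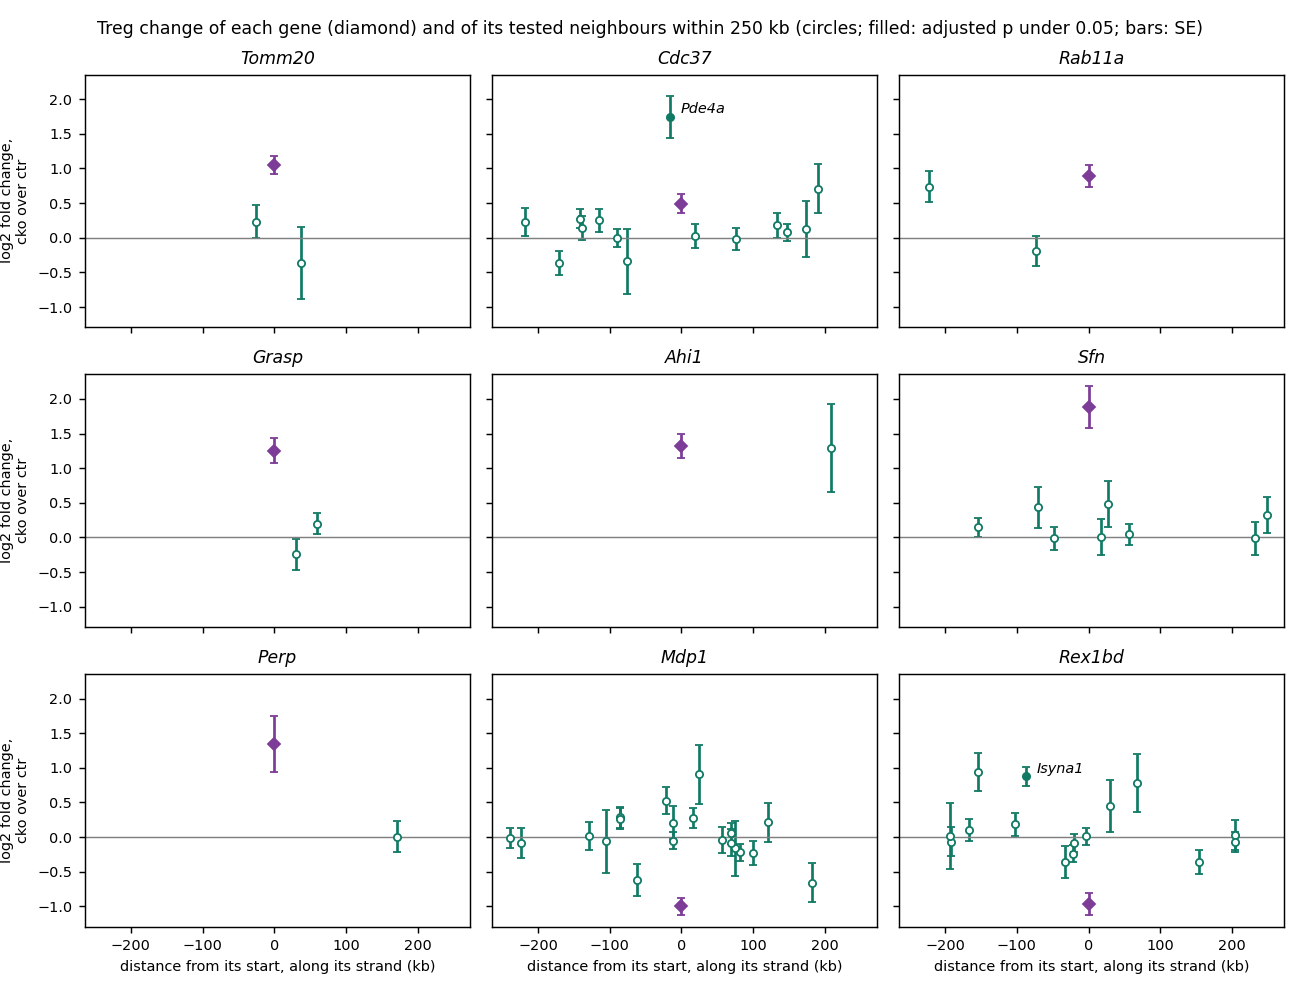
Log2 fold change of cko over ctr in Treg cells (y axis, bars are SE) against distance from each gene's start along its strand in kb (x axis). Diamonds at 0 are the 9 genes, circles their tested neighbours within 250 kb, and filled circles the 2 that passed the test, Pde4a at 1.74 and Isyna1 at 0.88. All other neighbours are open circles.

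The partners of the 9 genes in their own pathways were read from 8 lists with 115 tested genes other than the 9. Of these 0 rose and 1 fell, by edgeR's quasi-likelihood test with adjustment over all genes, which is near the 1.16% called among all genes tested in Treg cells. At an unadjusted p under 0.05 there were 6 higher and 7 lower, and DESeq2 called 0 higher and 2 lower, B9d1 and Pmaip1. No share of all genes tested stands beside these counts, or beside the unadjusted and DESeq2 counts per list below. No excess or lack is therefore read from them. The median log2 fold change over these lists was 0.05, against 0.03 over all genes tested. The gene that passed was B9d1, a ciliary transition zone protein like Ahi1. It stood at 8.93, 6.42 and 6.94 CPM in cko replicates 1 to 3 and at 17.5, 20.3 and 15.9 CPM in ctr replicates 1 to 3 (log2 -1.33, SE 0.24, adjusted p = 0.0344), opposite in direction to Ahi1. That call ended without cko replicate 1 or 3, without any 1 of the ctr replicates, and with cko replicates 1 and 3 added together.

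In the mitochondrial import list, 0 of 26 genes passed by edgeR or DESeq2 (3 at an unadjusted p under 0.05, all higher), the median log2 fold change was 0.12, and 7 genes lay wholly above and 1 wholly below ctr, where 11.1% and 8.71% of all genes tested in Treg cells did so. Pam16, of the motor that pulls proteins into the matrix, had the highest value of that list, 0.57 (SE 0.16, adjusted p = 0.131). Tomm22, the receptor beside Tomm20 in the same complex, had 0.30 (SE 0.12, adjusted p = 0.308). Among the 17 Hsp90 genes 0 passed by either tool (3 unadjusted, median 0.11), of which 2 were higher, Stip1 at 0.46 (SE 0.14, adjusted p = 0.187) and Fkbp4 at 0.52 (SE 0.16, adjusted p = 0.192), and 1 was lower, Hsp90aa1 at -0.46 (SE 0.15, adjusted p = 0.216). Among the 23 recycling endosome and Arf genes 0 passed by either tool (1 unadjusted, median 0.04). Cyth3, a cytohesin, had -0.61 (SE 0.22, adjusted p = 0.269).

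Of 23 further p53 targets 0 passed by edgeR (1 higher and 4 lower unadjusted) and 1, Pmaip1, by DESeq2, and their median was -0.04, although Sfn and Perp, both p53 targets, were higher in cko. Ccng1 had a log2 fold change of 0.58 (SE 0.15, adjusted p = 0.103), and the pro-apoptotic genes Pmaip1 and Bbc3 had -0.90 (SE 0.19, adjusted p = 0.0566) and -1.11 (SE 0.44, adjusted p = 0.318). By either tool and also unadjusted, none of the 6 other 14-3-3 genes passed (median 0.13, between -0.27 and 0.22), none of the 10 HAD phosphatases (median 0.07), and neither of the 2 desmosome genes with enough counts (-0.14 and 0.11). The remaining ciliary genes numbered 9 with B9d1, with a median of -0.21. These genes were named as list members after their values were seen, and no direction is read from a value that did not pass.

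For each gene, the genes with the most similar levels over the 30 sums (5 classes in 6 samples) were sought, as a description. The sums of a class share cell type, and those of a sample share the library. Tomm20 ran closest to Dad1 (Pearson r = 0.85), Rab11a to Edem1 (0.89), Mdp1 to R3hcc1 (0.92), Grasp to Ftl1 (0.95) and Ahi1 to Kdm2b (0.93). Sfn ran closest to Rfk (0.92), Perp to Dclk2 (0.95) and Cdc37 to Ttc4 (0.91). Rex1bd had no close match, with Dusp12 at 0.65 and Sirt5 at 0.65 as its nearest. The next nearest genes were Atp5d for Tomm20 (0.82), Myo1g for Rab11a (0.82), Rassf5 for Mdp1 (0.90), Atp6v1g1 for Grasp (0.95), Nol10 for Ahi1 (0.93), Gm16001 for Sfn (0.91), Rdx for Perp (0.93) and Denr for Cdc37 (0.91).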

How the data were processed

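Each sample has 1 deposited matrix of raw UMI counts, made with Cell Ranger 7.0.0 on GRCm38 (mm10) per the file headers and the submitters' processing notes, and 1 deposited table with UMI counts of T cell receptor contigs. Whether the authors removed doublets or free RNA first is not stated. Cells were kept with at least 300 genes, 500 UMIs and at most 10% mitochondrial counts. T cells needed 2 Cd3 UMIs, CD8 cells 2 Cd8 UMIs without Cd4 or Foxp3, conventional CD4 cells a Cd4 or Cd40lg UMI without Foxp3, Ikzf2, Il2ra or Cd8, NK cells 2 UMIs of Ncr1, Klrb1c, Klre1 and Eomes without Cd3, and myeloid cells 5 UMIs of monocyte and macrophage genes. Cells with markers of several lineages were left out, in place of a doublet caller. The gates were set after marker and gene levels had been seen, so class values may shift with them.

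Counts were summed per sample and class and compared as cko over ctr with edgeR 4.0.16 in R 4.3.3 (quasi-likelihood test with a robust fit, TMM scaling and filterByExpr), at a Benjamini-Hochberg threshold of 0.05, after the script was tested on simulated data. DESeq2 1.42.0 was an alternative. Errors after ± are SD over 3 samples, and p-values reflect only how much these samples vary. The 9 genes and all gene lists were chosen with earlier results of these data known. The naming rule covers the 9 genes, Ctcf, up to 6 genes past the threshold per list, all neighbours past it, and the 2 genes most similar to each of the 9. Genes outside it are marked as such. Samples with the same replicate number did not deviate together in Treg sums (correlations -0.06, -0.04 and 0.02), and the labels give no pairing. Promoters come from RefSeq, positions and neighbours from GENCODE vM21.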

Additional observations from a re-analysis of the deposited data

Results flagged for a closer look

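Some of the 9 genes separated the groups in another class in the direction opposite to Treg cells, with all 3 cko samples on one side of all 3 ctr samples. The difference between the classes was not tested in any of these cases, since the Treg contrast had selected the genes. Tomm20, at a log2 fold change of 1.05 in Treg cells, had -0.34 in NK cells. Grasp, at 1.25 in Treg cells, had -0.90 in conventional CD4 cells and -0.56 in CD8 cells. Rex1bd, at -0.97 in Treg cells, had 0.0385 in CD8 cells, a step smaller than its standard error. Cdc37, at 0.49 in Treg cells, had -0.28 in conventional CD4 cells, -0.31 in NK cells and -0.26 in myeloid cells.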

How the results depend on the processing

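The log2 fold changes of the 9 genes in Treg cells kept their sign under all 16 alternatives run for each. Their full ranges were 1.00 to 1.12 for Tomm20, 0.76 to 1.04 for Rab11a, -1.36 to -0.97 for Mdp1, 1.15 to 1.40 for Grasp, 1.13 to 1.499 for Ahi1, 1.64 to 2.17 for Sfn, 1.02 to 1.67 for Perp, -1.35 to -0.86 for Rex1bd and 0.39 to 0.59 for Cdc37. Leaving out 1 replicate at a time gave 1.00 to 1.12 for Tomm20, 0.76 to 1.04 for Rab11a, -1.03 to -0.97 for Mdp1, 1.15 to 1.40 for Grasp, 1.21 to 1.44 for Ahi1, 1.64 to 2.17 for Sfn, 1.02 to 1.67 for Perp, -1.14 to -0.86 for Rex1bd and 0.43 to 0.59 for Cdc37. Some alternatives were chosen after seeing the data, namely the Tconv and CD8 gates that require a receptor β chain or Cd40lg, the Treg gate that requires Cd4, and the gate that requires Foxp3 with cko replicates 1 and 3 added together.

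Counts of called genes depended far more on the samples. In Treg cells 112 genes were called. DESeq2 called 221, testing without a filter on low counts 263, a required Foxp3 UMI 37, cko replicates 1 and 3 added together 33, and both of these steps together 3. Leaving out 1 replicate gave 0 to 261 calls, with 0 (1320 genes at an unadjusted p under 0.05) without cko replicate 1 and 261 without cko replicate 2. With the replicate number as a block, the counts were 68 in Treg cells, 26 in conventional CD4 cells, 1 for the neighbours and 0 for the gene lists. In conventional CD4 cells 2 genes were called, and the alternatives gave 61 with DESeq2, 148 with no filter, 22 with Cd40lg required, 8 with a receptor β chain required and 1 with cko replicates 1 and 3 added together, and 1 to 108 without 1 replicate. In CD8 cells 303 were called, against 622 with DESeq2, 58 with cko replicates 1 and 3 added together and 27 to 746 without 1 replicate. In NK cells 437 were called, against 262 with DESeq2, 847 with no filter, 129 with cko replicates 1 and 3 added together and 59 to 408 without 1 replicate. In myeloid cells 1935 were called, against 981 with cko replicates 1 and 3 added together and 793 to 2059 without 1 replicate. The neighbour count was 0 to 3 and the list count 0 to 2 without 1 replicate, and both were 0 with cko replicates 1 and 3 added together. The cause of these shifts was not tested. Sfn, Perp and Grasp rest on 16 to 78 UMIs per Treg sum, which limits their precision. In the conventional CD4 sum of ctr replicate 2 they rest on 2, 3 and 14 UMIs.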
